A study of Canis lupus familiaris with 17 samples.

Results

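MSANTD3-TMEFF1 (ENSCAFG00000002577) and CAVIN4 (ENSCAFG00000002581) are a pair of neighbouring dog genes that were followed here through circulating leukocytes. They are 2 of the 20257 genes in the single-cell count matrices, and they were taken by symbol because their counts had been seen to be lower in dogs with osteosarcoma than in healthy dogs. That difference was therefore known when the genes were chosen, and it is given below as a description. No test of it is used as support, and counts of called genes in that contrast serve only as background. The data came from blood leukocytes of 7 healthy dogs and 10 dogs with osteosarcoma, 1 library per dog, made with a 3′ droplet kit that counts unique molecular identifiers (UMIs). The healthy dogs were client-owned, all dogs were wild type by label, the osteosarcoma dogs carried a primary bone tumor and had received no treatment, and the dogs were of several breeds and ages. Leukocytes were taken from the interface of a density gradient and red blood cells were then lysed, so granulocytes and platelets are present only as far as they followed that interface.

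CAVIN4 belongs to the cavins, coat proteins that shape caveolae, the small flask-like pits of the plasma membrane, and it is known mainly from heart and skeletal muscle. TMEFF1 is a transmembrane protein with an EGF-like and follistatin-like domains that can inhibit Nodal signalling through the co-receptor Cripto, and MSANTD3 carries a Myb/SANT-type domain of the kind found in DNA-binding proteins. The hyphenated name MSANTD3-TMEFF1 marks a readthrough gene model that joins both, and neither MSANTD3 nor TMEFF1 has a row of its own in these matrices. Whether a UMI of this row came from exons of MSANTD3 or of TMEFF1 cannot be told from the counts, which holds for every MSANTD3-TMEFF1 value given here. In the RefSeq gene table for the assembly UU_Cfam_GSD_1.0, which is not the build of these counts, TMEFF1 and CAVIN4 are neighbours whose extents overlap. Reads in the shared stretch could have gone to either gene or to none, so the split of counts between them is uncertain.

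A total of 93013 barcodes was deposited and 76890 cells were kept, from 1221 to 6589 per dog, with a median of 3717 to 6848.5 UMIs per cell in each dog. Osteosarcoma dog 3 had the fewest cells. Barcode sequences shared between libraries were few, 0 to 22 per pair of dogs and at most 0.375% of the smaller library. No barcode that held a UMI of either gene was positive for the same gene in another library.

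Both genes were counted almost entirely in the same 4 healthy dogs, and in both lymphoid and myeloid lineages of those dogs. MSANTD3-TMEFF1 gave 602 UMIs in 499 cells of the healthy dogs and 20 UMIs in 20 cells of the osteosarcoma dogs. CAVIN4 gave 254 UMIs in 234 cells and 4 UMIs in 3 cells, respectively. In each of the remaining 3 healthy dogs, both genes were as scarce as in the dogs with osteosarcoma.

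MSANTD3-TMEFF1 gave 116, 181, 155, 0, 1, 146 and 3 UMIs in healthy dogs 1 to 7. In osteosarcoma dogs 1 to 10 it gave 2, 5, 3, 2, 1, 1, 1, 4, 0 and 1 UMIs. Healthy dogs 1, 2, 3 and 6 stood apart from every other dog, while healthy dogs 4, 5 and 7 lay within the range of the osteosarcoma dogs, so the groups overlapped. As CPM, the UMIs of a gene scaled to a common total over a dog's kept cells, the 4 dogs reached 3.15, 7.60, 5.64 and 4.72. The highest of the other 13 dogs was osteosarcoma dog 3 at 0.415 CPM, which rested on 3 UMIs, and the lowest of the 4 was 7.57 times that level. These 4 dogs held 96.1% of all UMIs of the gene.

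CAVIN4 gave 79, 60, 57, 0, 0, 58 and 0 UMIs in healthy dogs 1 to 7. Among the osteosarcoma dogs, dog 2 had 2 UMIs, both in 1 cell, dogs 5 and 7 had 1 UMI each, and the other 7 dogs had none. The dogs with high counts were again healthy dogs 1, 2, 3 and 6, at 2.14, 2.52, 2.07 and 1.88 CPM, and the groups overlapped at 0. The lowest of these values was 36.6 times the highest value of the other 13 dogs, 0.0512 CPM, and the 4 dogs held 98.4% of the UMIs. The ratio of MSANTD3-TMEFF1 to CAVIN4 UMIs was 1.47 in healthy dog 1, 3.02 in dog 2, 2.72 in dog 3 and 2.52 in dog 6.

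**Figure D1:**
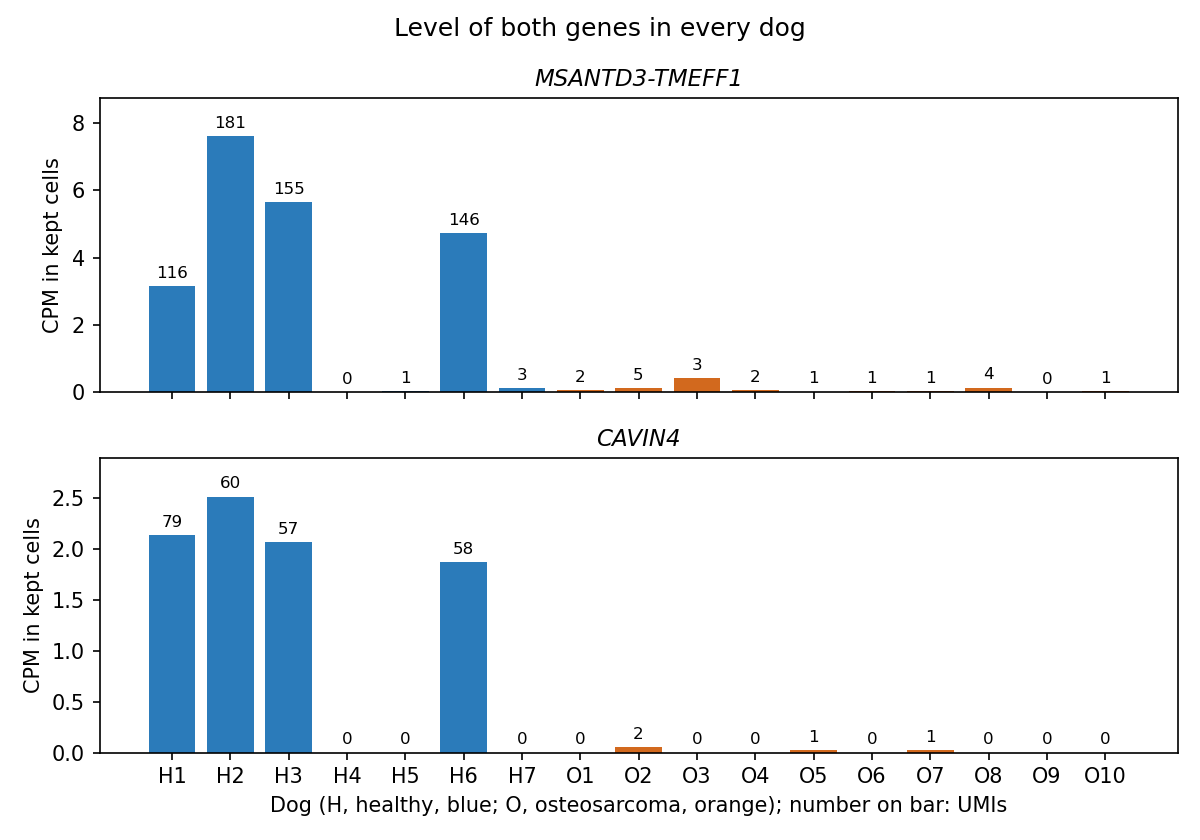
Level of MSANTD3-TMEFF1 (top) and CAVIN4 (bottom) in every dog; the bars give CPM over all kept cells on a linear axis, healthy dogs (H) in blue and osteosarcoma dogs (O) in orange, with the UMI count above each bar. Healthy dogs 1, 2, 3 and 6 carry 96.1% and 98.4% of the UMIs of the respective gene, and healthy dogs 4, 5 and 7 lie at the level of the osteosarcoma dogs.

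Over whole groups, the healthy dogs averaged 3.04 ± 3.08 CPM (SD, n = 7) of MSANTD3-TMEFF1, while the mean of the osteosarcoma dogs was 0.0960 ± 0.121 CPM (SD, n = 10). For CAVIN4 the means were 1.23 ± 1.17 and 0.0106 ± 0.0182 CPM. In the healthy group the SD was about as large as the mean for both genes, with 4 dogs high and 3 at or near 0. Pooled over the cells of each group, the healthy level was 42.9 times the osteosarcoma level for MSANTD3-TMEFF1 (exact 95% counting interval 27.5 to 70.7) and 90.5 times for CAVIN4 (34.9 to 335). The CAVIN4 ratio rests on 4 UMIs in the osteosarcoma dogs, and without osteosarcoma dog 2, which held 2 of them, it was 157 (42.9 to 1300). All of these intervals take UMIs as the unit, cover counting error only and leave out the spread between dogs. They are therefore not intervals for a difference between groups of dogs.

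The edgeR fit on sums per dog gave a log2 fold change (osteosarcoma over healthy) of -5.19 (SE 0.94) for MSANTD3-TMEFF1 and -6.02 (SE 1.06) for CAVIN4. They were the 4th and the 2nd lowest fold changes of 16266 genes, of which 37 (0.227%) lay below -2 and whose median was -0.00. At the threshold of the study, an adjusted p below 0.01 with an absolute log2 fold change above 0.58, edgeR's quasi-likelihood test called 0 of 16266 genes (0%). Before adjustment, 935 genes (5.75%) had a p below 0.05, and the number called by DESeq2 was 3. The pair is among these 16266 genes and so was not called by edgeR, and its calls by DESeq2 are not given. Because the genes were chosen on this contrast, nothing is read from their call, their SE or their place in it.

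The share of cells with at least 1 UMI showed the same division between dogs. MSANTD3-TMEFF1 was found in 1.92% of the cells of healthy dog 1 (exact 95% binomial interval 1.58 to 2.32%), 4.49% in dog 2 (3.8 to 5.27%), 2.50% in dog 3 (2.09 to 2.98%) and 2.78% in dog 6 (2.31 to 3.30%). CAVIN4 was found in 1.31%, 1.74%, 1.12% and 1.16% of the cells of these dogs. These intervals cover counting error only. In healthy dog 4, neither gene gave a UMI in 6589 cells, the largest number of cells of any dog, which allows a share of up to 0.0560%. In the osteosarcoma dogs the share with MSANTD3-TMEFF1 ran from 0 in dog 9 to 0.246% in dog 3, whose interval of 0.0507 to 0.716% was the widest.

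When every cell was thinned to 1500 UMIs, the expected share with MSANTD3-TMEFF1 was 0.522%, 1.26%, 0.857% and 0.745% in healthy dogs 1, 2, 3 and 6. It was at most 0.0150% in the other healthy dogs and at most 0.0887% in the osteosarcoma dogs. For CAVIN4 the corresponding shares were 0.340%, 0.367%, 0.347% and 0.277%, with 0 in the other healthy dogs and at most 0.0060% in the osteosarcoma dogs. Thinning left out 1716 cells of the healthy dogs and 2171 of the osteosarcoma dogs that were shallower.

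Depth and mitochondrial share of these 4 dogs lay among those of the others. The median UMIs per cell ranged from 4460.5 to 6676 in healthy dogs 1, 2, 3 and 6 and from 3717 to 6848.5 in the other 13 dogs, and the median mitochondrial share from 2.28 to 3.63% and from 1.74 to 3.75%. By the study's record, these 4 dogs were a mixed-breed dog, an Australian Shepherd, a Standard Poodle and a Labrador Retriever. The other healthy dogs were a Beagle, a mixed-breed dog and a Newfoundland, and a Labrador Retriever was also among the osteosarcoma dogs. A part of breed or ancestry in the counts was not tested.

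To ask whether the difference belonged to some cell types only, the counts were divided by lineage. Clusters were named from marker genes, and neither gene took part in the clustering or the naming. Within healthy dogs 1, 2, 3 and 6, MSANTD3-TMEFF1 was counted in T cells, B cells, monocytes, dendritic cells and eosinophils or basophils of every dog, and CAVIN4 in the T cells, B cells and monocytes of every dog.

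In CD4 T cells, MSANTD3-TMEFF1 gave 51, 58, 54 and 57 UMIs in healthy dogs 1, 2, 3 and 6. The only other UMIs there were 1 in healthy dog 7, 3 each in osteosarcoma dogs 2 and 3, and 2 each in osteosarcoma dogs 4 and 8. Among CD8 T and NK cells the counts were 4, 26, 11 and 13, with 1 UMI in healthy dog 5 and none in the 6841 cells of the osteosarcoma dogs. The remaining T cells were a cluster led by LEF1 and another with GATA3 and PARD3B among its leading genes. CD8A was at 63.1 and 46.5 CPM in these clusters, against 31.2 and 5.7 CPM of CD4. The first also had ITGA1 among its leading genes, and the study lists LEF1 and ITGA1 for naive CD8 T cells. The group of CD8 T and NK cells may therefore lack naive CD8 T cells. The remaining T cells gave 6, 23, 4 and 12 UMIs, and 1 UMI in each of osteosarcoma dogs 2 and 6. All 3 T cell groups thus repeated the division seen over all cells.

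B cells gave 37, 34, 35 and 15 MSANTD3-TMEFF1 UMIs in the 4 dogs and 1 UMI in osteosarcoma dog 1. Plasma cells, far fewer, gave 1, 0, 6 and 4, with 1 UMI in osteosarcoma dog 8. In monocytes the counts were 12, 21, 28 and 26, with 2 UMIs in healthy dog 7 and 1 UMI in each of 5 osteosarcoma dogs. Lymphoid and myeloid cells of the same dog were thus positive together.

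The smaller myeloid populations followed the same dogs. Dendritic cells gave 2, 4, 9 and 12 MSANTD3-TMEFF1 UMIs and 1 UMI in osteosarcoma dog 7. Eosinophils and basophils gave 1, 14, 2 and 2, and none in the 1471 such cells of the osteosarcoma dogs. Neutrophils, which had median depths of only 1426 to 3526 UMIs per dog, gave 1, 0, 5 and 0 UMIs and none in the 2892 neutrophils of the osteosarcoma dogs, so that 2 of the 4 dogs were at 0 there.

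CAVIN4 was counted in the same dogs, mostly at lower numbers. In healthy dog 1 it gave more UMIs than MSANTD3-TMEFF1 in monocytes and in CD8 T and NK cells, and it was at 0 in the dendritic cells of that dog and in the eosinophils and basophils of dogs 3 and 6. In CD4 T cells it gave 34, 24, 23 and 19 UMIs in healthy dogs 1, 2, 3 and 6, and 2 UMIs in 1 cell of osteosarcoma dog 2. In B cells the counts were 19, 5, 9 and 6, and in monocytes 15, 14, 12 and 18, with 1 monocyte UMI in osteosarcoma dog 7. CD8 T and NK cells gave 5, 3, 2 and 5, and the remaining T cells 5, 8, 1 and 2. No CAVIN4 UMI was found in B cells, CD8 T and NK cells, remaining T cells, dendritic cells, plasma cells, neutrophils, eosinophils or basophils of any dog outside these 4.

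**Figure D2:**
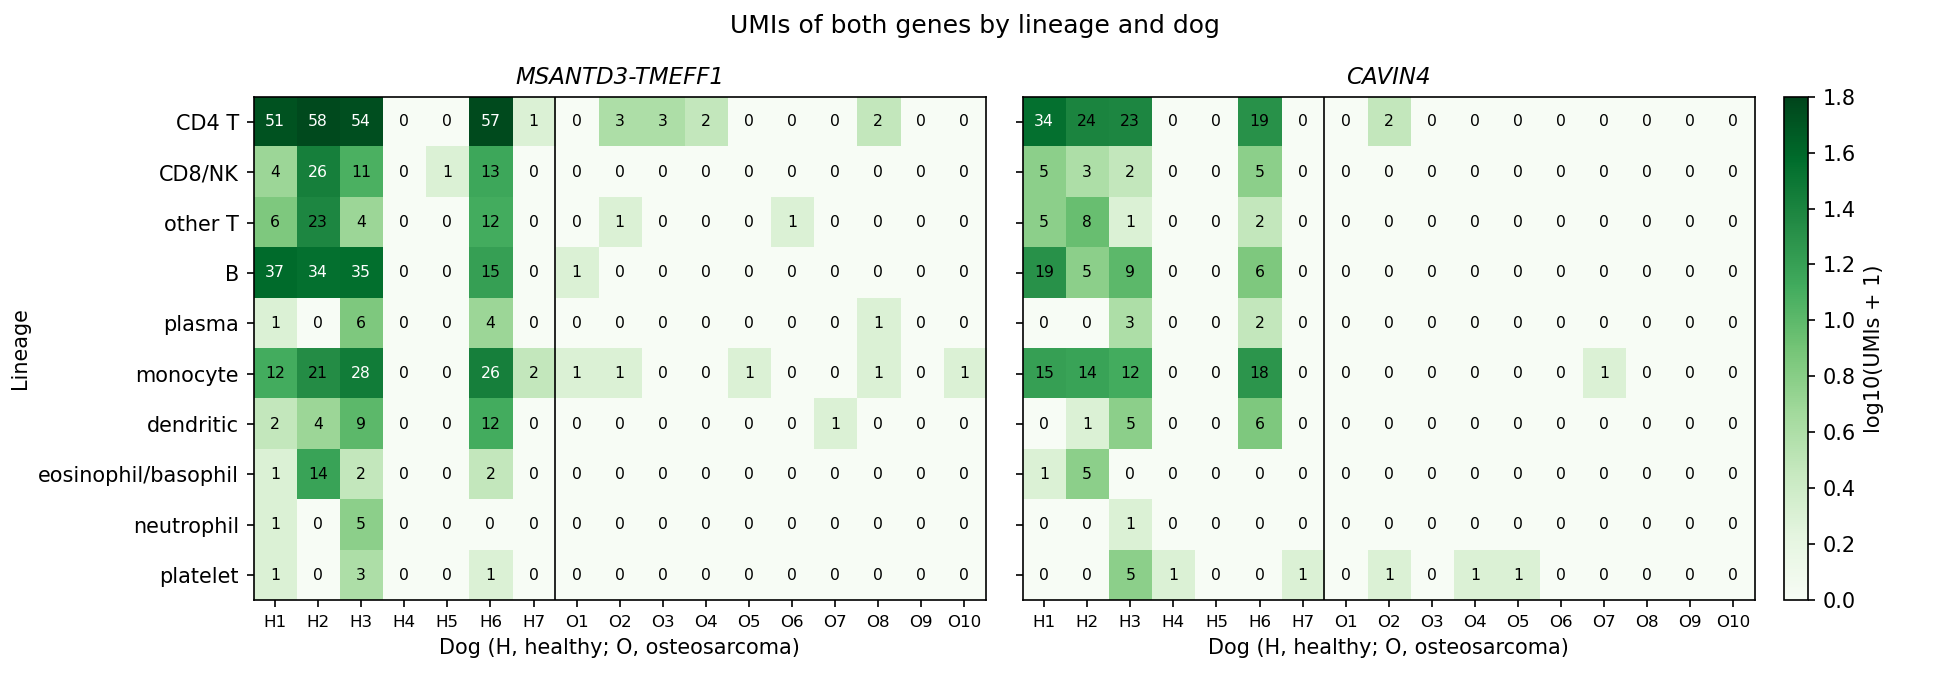
UMIs of MSANTD3-TMEFF1 (left) and CAVIN4 (right) in each lineage (rows) and dog (columns; H, healthy; O, osteosarcoma), with the count in each box and the shade giving log10(UMIs + 1). Healthy dogs 1, 2, 3 and 6 have UMIs of both genes in the T cell, B cell and monocyte rows, from 51 to 58 of MSANTD3-TMEFF1 in CD4 T cells, and some boxes at 0 in the smaller populations, whereas no box of another dog exceeds 3.

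Pooled over each group, MSANTD3-TMEFF1 in healthy dogs was 29.6 times the osteosarcoma level in CD4 T cells and 33.8 times in monocytes. The corresponding fitted log2 fold changes were -4.65 (SE 0.93) and -4.51 (SE 0.78). Where the osteosarcoma dogs had no UMI, a floor of 3 UMIs over the group gives a bound on the pooled level. MSANTD3-TMEFF1 was at least 24.6-fold higher in the pooled healthy CD8 T and NK cells and at least 7.58-fold higher in eosinophils and basophils. Without healthy dog 2 the first bound was 14.2, and without osteosarcoma dog 7 the second was 4.23. In neutrophils, 5 of the 6 UMIs came from healthy dog 3, without which the healthy level lay below the floor, so no bound is given. CAVIN4 was at least 9.41-fold higher in the pooled healthy B cells and at least 6.99-fold higher in the remaining T cells. It was at least 6.71-fold higher in CD8 T and NK cells and at least 4.31-fold higher in dendritic cells. Its bound was 2.39 in eosinophils and basophils and 1.82 in plasma cells. These weaker bounds fell to 1.08 without healthy dog 2 and to 1.02 without healthy dog 3, respectively. The bound for the remaining T cells was 4.07 without healthy dog 2, and that for dendritic cells was 2.90 without healthy dog 6. The bounds follow both the healthy level and the total UMIs of the osteosarcoma cells, and they leave out the counting error of the healthy UMIs. They do not hold for each healthy dog. In the lineages with a bound, healthy dogs 4, 5 and 7 had no UMI of either gene except 1 MSANTD3-TMEFF1 UMI in dog 5.

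In the same contrast within each of the 8 lineages with enough dogs, edgeR called 0 genes (0%) of the 8761 to 14521 tested. DESeq2 called 2 genes in eosinophils and basophils, 1 in monocytes and 0 in each of the other lineages. A test of whether the group difference itself varied between lineages, on which the genes had not been chosen, called 50 of 16199 genes (0.309%) at an adjusted p below 0.05 and neither of these. The adjusted p (edgeR) was 0.854 for MSANTD3-TMEFF1 and 1 for CAVIN4. These values rest on 20 and 4 UMIs in the osteosarcoma dogs, and they do not show that the contrast was of equal size in all lineages.

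Lineages were then compared within dogs, each against the mean of the others, with edgeR and the dog as a block over all 17 dogs. That mean included scarce lineages. Healthy neutrophils held 6 MSANTD3-TMEFF1 UMIs and 1 CAVIN4 UMI, and healthy eosinophils and basophils 6 CAVIN4 UMIs. The differences of the other lineages therefore depend in part on these few counts. Healthy dogs 1, 2, 3 and 6 held 96.1% of the MSANTD3-TMEFF1 and 98.4% of the CAVIN4 UMIs. The lineage values and adjusted p of the pair therefore rest almost wholly on those dogs, and the others add little. MSANTD3-TMEFF1 was higher in B cells, at 7.52 to 16.5 CPM in healthy dogs 1, 2, 3 and 6, with a log2 difference of 0.81 (SE 0.23, adjusted p = 0.00175). With DESeq2 this call was lost (0.64, adjusted p = 0.0655). MSANTD3-TMEFF1 was lower in monocytes, at 1.27, 2.97, 2.82 and 2.40 CPM, with a log2 difference of -0.90 (SE 0.25, adjusted p = 0.000813), and it passed with DESeq2 as well (-1.63, adjusted p = 6.25e-07). Both kinds of call were common among all 16199 genes, of which 36.5% were higher and 22.3% lower in B cells, and 39.4% higher and 21% lower in monocytes.

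Among the 6 lineages of B cells, the 3 T cell groups, monocytes and dendritic cells, monocytes had the lowest level in each of the 4 dogs and B cells the highest in dogs 1, 2 and 3. Monocytes also held more UMIs per cell, with a median of 8870 to 15212 UMIs in healthy dogs against 3202.5 to 5807 in B cells. At 1500 UMIs per cell the expected share of positive cells was 0.202%, 0.501%, 0.424% and 0.345% in monocytes and 1.14%, 2.38%, 1.42% and 1.25% in B cells of the same dogs, lower in monocytes in each. On this scale the remaining T cells of dog 3 (0.303%) lay below its monocytes, and B cells were the highest of the 6 lineages in dog 6 too. With mostly 1 UMI per positive cell, the thinned share largely restates CPM. Without thinning, monocytes were the lowest in dog 2 (3.41%) only. CD8 T and NK cells lay lower in dog 1 (1.03% against 1.14%) and dog 6 (1.86% against 2.39%), and the remaining T cells in dog 3 (1.33% against 1.71%).

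In eosinophils and basophils the level was 5.14, 11.2, 23.7 and 42.6 CPM, with a log2 difference of 1.03 (SE 0.42, adjusted p = 0.0340) while 18.3% of all genes were called higher there and 29.7% lower. That value rested on 19 UMIs, of which 14 came from healthy dog 2, and the call was lost with DESeq2's size factors (adjusted p = 0.203), with a minimum of 10 cells and at a lower clustering resolution. With DESeq2 it was larger (1.67, adjusted p = 0.000116).

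CD4 T cells, CD8 T and NK cells, the remaining T cells and dendritic cells did not pass the test for MSANTD3-TMEFF1, with log2 differences of -0.21 to 0.08 and adjusted p (edgeR) of 0.838 to 0.963. Among all genes, 41.1% were called higher and 20.9% lower in CD4 T cells, 36.1% and 20.7% in CD8 T and NK cells, 36.8% and 19.8% in the remaining T cells, and 31% and 21.2% in dendritic cells. In neutrophils, where 27.9% of all genes were called higher and 33% lower, each of the pair had fewer than 10 UMIs and no difference is given. In CD4 T cells the levels were 3.32, 6.79, 7.04 and 5.79 CPM. In CD8 T and NK cells they were 1.71, 12.7, 7.89 and 4.31 CPM, in the remaining T cells 2.43, 11.6, 3.64 and 8.16 CPM, and in dendritic cells 4.62, 9.58, 4.17 and 5.45 CPM. From the highest level fitted by edgeR to the lowest, the order was eosinophils and basophils, B cells, remaining T cells, CD4 T cells, dendritic cells, CD8 T and NK cells, and monocytes. The order depended on the tool. With DESeq2 the log2 difference of MSANTD3-TMEFF1 in dendritic cells (0.11) lay above those in the remaining T cells (0.0037) and in CD4 T cells (-0.46), and with DESeq2's size factors in edgeR B cells came before eosinophils and basophils. Adjacent places in this order were not tested against each other, and the values of neighbouring lineages overlapped between dogs.

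CAVIN4 passed the test in no lineage with 10 or more of its UMIs. Its levels were 3.86, 2.42, 2.96 and 3.01 CPM in B cells, 2.21, 2.81, 3.00 and 1.93 in CD4 T cells, and 1.59, 1.98, 1.21 and 1.66 in monocytes of healthy dogs 1, 2, 3 and 6. The log2 difference was 0.56 in B cells (SE 0.30, adjusted p = 0.0997), 0.30 in CD4 T cells (SE 0.23, adjusted p = 0.343), and -0.03 in monocytes (adjusted p = 1), by edgeR. No SE is given for monocytes, since it was derived from a fold change and an F statistic that were both near 0. With DESeq2 the direction in CD4 T cells turned, at -1.57 (SE 1.13, adjusted p = 0.211), and the values were -1.89 in monocytes (SE 1.13, adjusted p = 0.126) and 0.25 in B cells (SE 1.14, adjusted p = 0.866). No direction of CAVIN4 between lineages is therefore given. In CD8 T and NK cells, the remaining T cells and dendritic cells it was -0.35 to 0.21, with adjusted p (edgeR) of 0.488 to 0.960, and -1.10 to 0.55 with DESeq2. The value in B cells passed the threshold under 3 of the alternatives, with 0.93 and an adjusted p of 0.0129 as the largest.

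**Figure D3:**
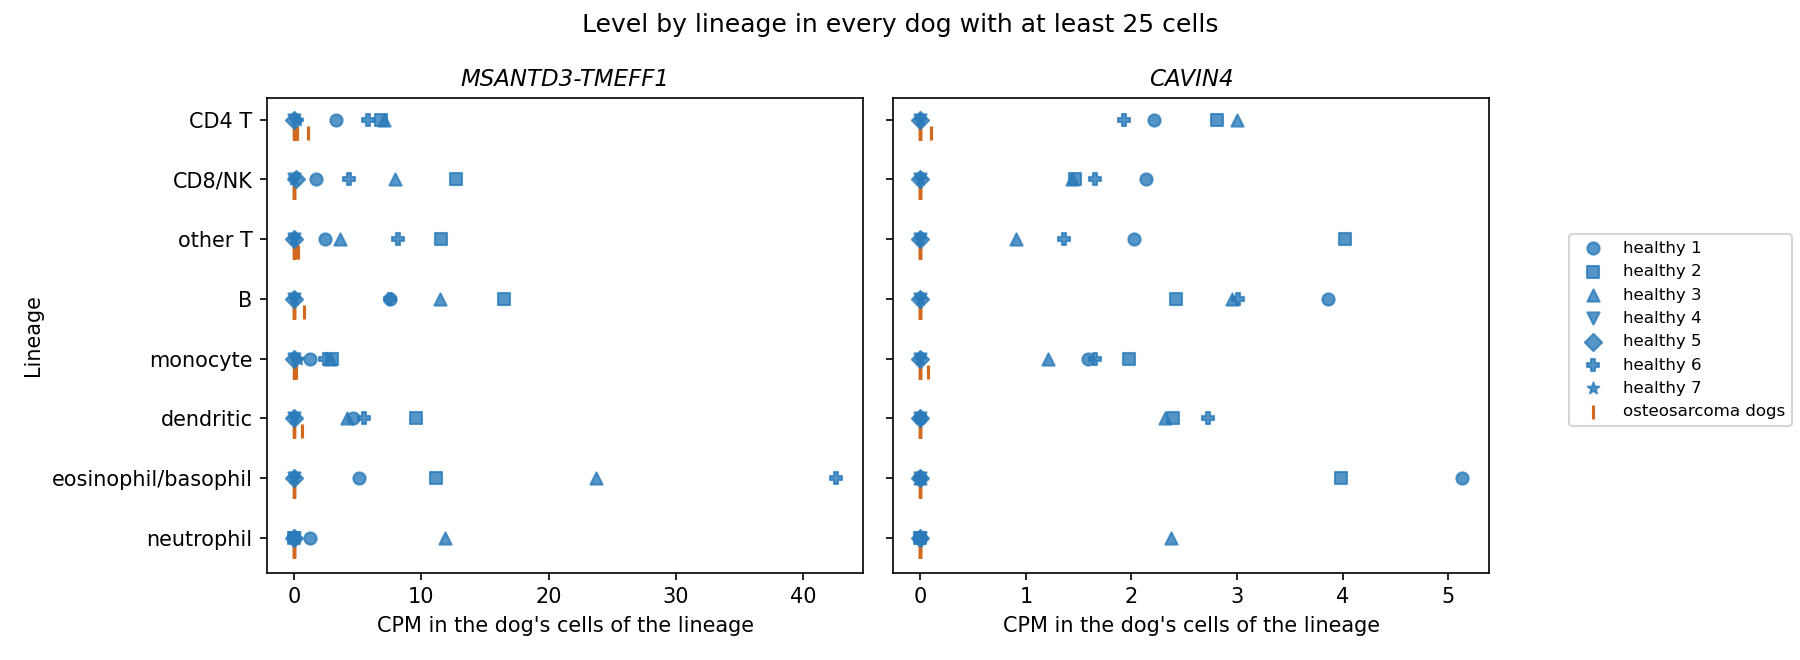
Level of MSANTD3-TMEFF1 (left) and CAVIN4 (right) in CPM within each lineage, for every dog with at least 25 cells of it; each blue symbol is 1 healthy dog and each orange tick 1 osteosarcoma dog. Healthy dogs 1, 2, 3 and 6 lie to the right in most lineages, with MSANTD3-TMEFF1 at 7.52 to 16.5 CPM in B cells and 1.27 to 2.97 CPM in monocytes, whereas the osteosarcoma dogs and healthy dogs 4, 5 and 7 stay near 0.

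Free RNA and platelet particles were examined beside these shares. Platelets of healthy dogs 1, 2, 3 and 6, with medians of 667 to 761.5 UMIs, held 1, 0, 3 and 1 MSANTD3-TMEFF1 UMIs and 0, 0, 5 and 0 CAVIN4 UMIs, and they were left out of the sums over all cells. Another 5 CAVIN4 UMIs in platelets came 1 each from healthy dogs 4 and 7 and osteosarcoma dogs 2, 4 and 5. Pooled over the healthy dogs, platelets reached 5.14 CPM of MSANTD3-TMEFF1 and 7.19 CPM of CAVIN4, on 5 and 7 UMIs, against 2.97 and 1.25 CPM over all cells. Erythrocyte clusters held no UMI of either gene in 35 cells of healthy and 180 cells of osteosarcoma dogs, but they came mainly from a single osteosarcoma dog. The part of free RNA in the shares was not tested.

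A positive cell usually held a single UMI. In healthy dogs 1, 2, 3 and 6, 10, 30, 25 and 16 cells held 2 or more MSANTD3-TMEFF1 UMIs, with 2, 4, 4 and 5 as the highest number in 1 cell. For CAVIN4, 7, 5, 2 and 5 cells held 2 or more. In the other 13 dogs no kept cell held more than 1 UMI of MSANTD3-TMEFF1.

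The genes were found in the same cell more often than in cells at large. MSANTD3-TMEFF1 was present in 8 of 72 CAVIN4-positive cells (11.1%) of healthy dog 1, 18 of 55 (32.7%) of dog 2, 4 of 55 (7.27%) of dog 3 and 4 of 52 (7.69%) of dog 6. The share among all cells of these dogs was 1.92%, 4.49%, 2.50% and 2.78%, lower in each of the 4. CAVIN4-positive cells were also deeper, with medians of 7123.5, 8677, 4989 and 7603 UMIs against 6180, 6676, 4460.5 and 5644 in all cells. The cells of a dog are not replicates, so no test was made, and the parts of depth and of reads in the overlap of both genes were not tested.

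**Figure D4:**
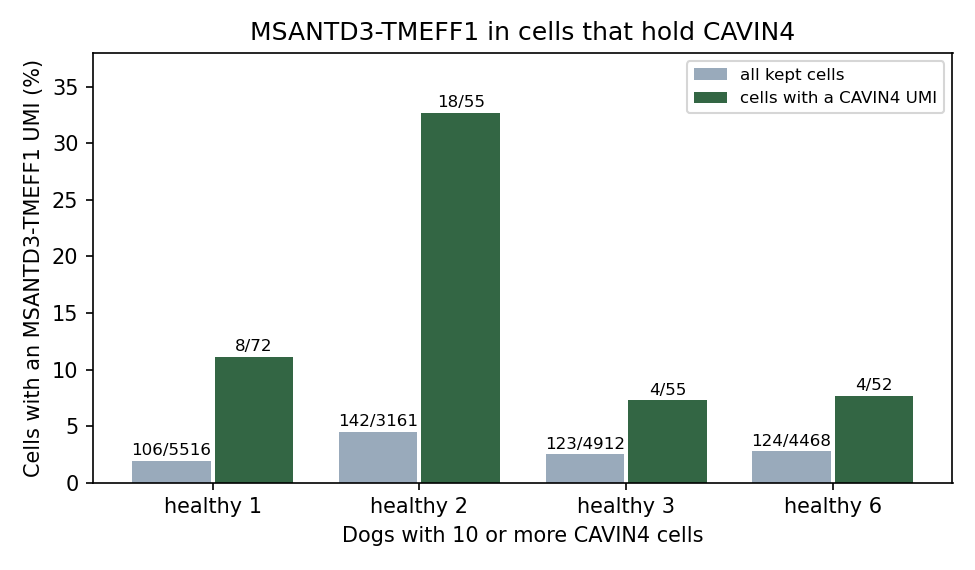
Share of cells with an MSANTD3-TMEFF1 UMI among all kept cells (grey) and among cells with a CAVIN4 UMI (green) in the 4 dogs with 10 or more CAVIN4-positive cells; the numbers above the bars are positive cells over cells. The green bar is the higher in each dog, most of all in healthy dog 2 with 32.7% against 4.49%.

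Genes around this pair were set beside it. Of 26 genes listed for the locus, 15 were counted and 14 tested, and edgeR called 0 of the 14, as it called 0% of all genes, with 7 fold changes above and 7 below 0, from -0.78 to 0.16 on the log2 scale (smallest adjusted p = 0.881). ERP44, an endoplasmic reticulum chaperone, was at 86.8 ± 9.32 CPM in healthy and 85.4 ± 12.8 CPM in osteosarcoma dogs. INVS, a protein of primary cilia, was at 48.6 ± 9.76 and 46.0 ± 8.61 CPM. TEX10, the nearest counted gene on the MSANTD3 side, was at 44.5 ± 16.8 and 36.3 ± 12.07 CPM.

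STX17, a SNARE protein of autophagosomes, was at 64.7 ± 8.85 CPM in healthy and 62.4 ± 6.04 CPM in osteosarcoma dogs. PLPPR1, the nearest counted gene on the CAVIN4 side, was at 4.23 ± 2.98 and 2.53 ± 1.47 CPM, with healthy dog 1 highest at 10.3 CPM. The groups overlapped for each of these 5 genes, and none of the 5 was near 0 in every dog but healthy dogs 1, 2, 3 and 6.

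**Figure D5:**
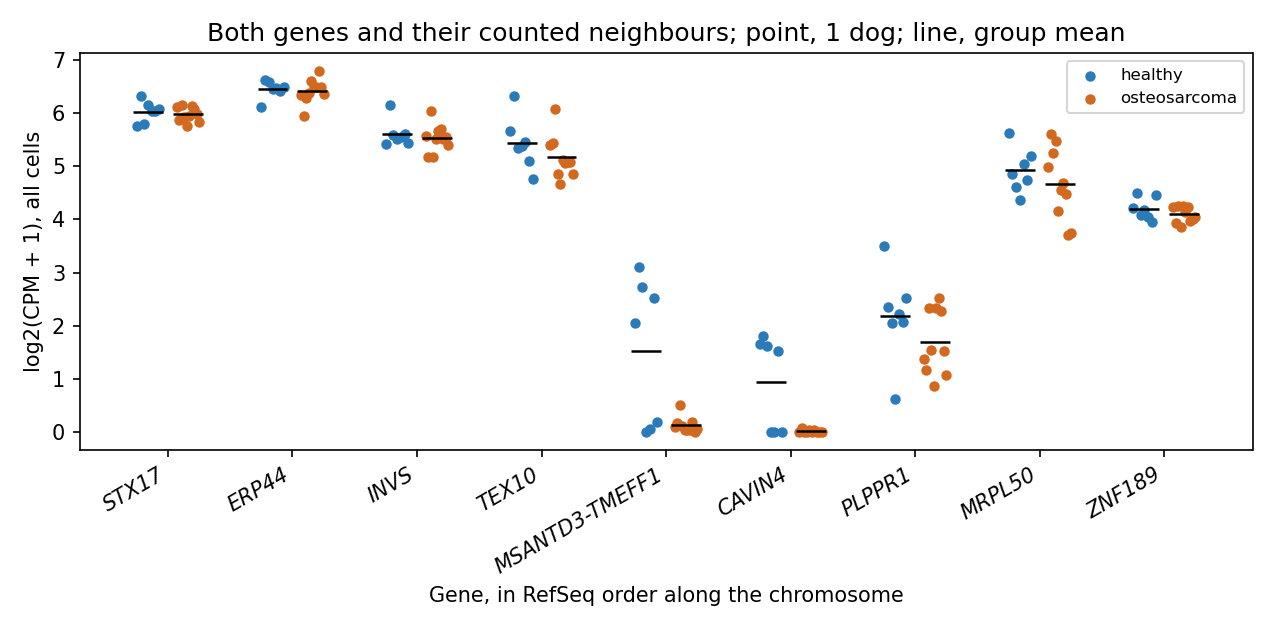
MSANTD3-TMEFF1, CAVIN4 and counted genes around them in RefSeq order, as log2(CPM + 1) over all kept cells; each point is 1 dog (blue, healthy; orange, osteosarcoma) and the line is the group mean. The healthy points of MSANTD3-TMEFF1 and CAVIN4 fall into 2 separate sets of 4 and 3 dogs, while those of ERP44 lie between 68.3 and 97.0 CPM.

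Other genes of caveolae, of the Nodal and activin pathway and of the MSANTD family are given by their levels, since edgeR called 0% of all genes between groups and a list without a call is no result about that list. None of 9 tested caveola genes was called (median log2 fold change -0.06, smallest adjusted p = 0.873). CAV1, CAV2 and CAV3, the caveolins that build the caveolar membrane domain, gave only 10, 16 and 40 UMIs over all 17 dogs. CAVIN1, the cavin on which caveolae of most tissues depend, was at 0.222 ± 0.150 and 0.203 ± 0.0961 CPM in healthy and osteosarcoma dogs, and CAVIN3 at 4.27 ± 1.14 and 4.71 ± 2.93 CPM. CAVIN1 and the caveolins were thus at 107 UMIs or fewer over all dogs, and CAVIN3 was not scarce, at 2063 UMIs.

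Of the TMEFF1 relatives and Nodal and activin pathway genes, 0 of 10 tested were called (median log2 fold change -0.05, smallest adjusted p = 0.733). TMEFF2, the paralog of TMEFF1, was at 5.03 ± 0.654 and 4.83 ± 1.88 CPM. NODAL itself gave 3 UMIs in all dogs, and GDF3, a related ligand, gave none. ACVR2A, a type II activin receptor, had the lowest log2 fold change of the list, -1.05, and a single dog, healthy dog 7 at 187 CPM, lay far above the others at 23.7 to 44.4 CPM. None of the 3 genes MSANTD1, MSANTD2 and MSANTD4 was called (smallest adjusted p = 0.733).

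Muscle, in which CAVIN4 is best known, was checked by its markers. Of 16 muscle markers 15 were counted, and their sum was 173 to 226 CPM in healthy and 189 to 220 CPM in osteosarcoma dogs, mostly from NEB and TNNT1. In healthy dogs 1, 2, 3 and 6 the sum was 220, 173, 192 and 208 CPM. Without NEB and TNNT1 the sum was 52.0 to 60.4 CPM in healthy and 44.2 to 57.2 CPM in osteosarcoma dogs. Much of this came from MYH7 (10614 UMIs, 17.4 to 25.4 CPM over all dogs) and CKM (8645 UMIs, 8.56 to 25.1 CPM), with MYL2, TNNT3 and TNNC1 at 3019, 2477 and 981 UMIs. MYOG gave no UMI, and MYH2 3, MYH1 5, MYL1 7, ACTA1 10, MB 19, DES 81 and TTN 357 UMIs. The muscle list was thus counted in part, and neither its sum nor MYH7 or CKM was high in healthy dogs 1, 2, 3 and 6 alone. CAVIN4 itself, at 1.88 to 2.52 CPM in these dogs, lay far below the sums, which could not show a part of that size. A part of muscle in the counts of the pair was not tested.

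Across dogs, the genes most like MSANTD3-TMEFF1 in level were sought among 8968 genes with a mean of at least 5 CPM, by Pearson's r over the 17 dogs after subtraction of each group's mean on the log2(CPM + 1) scale. The highest were ENSCAFG00000017563 (r = 0.74), SAAL1 (0.72), RNPC3 (0.71), SERPINB10 (0.71) and GLIS3 (0.69), and the lowest CWC25 (-0.81), EID1 (-0.77) and PYURF (-0.75). For CAVIN4 they were SAAL1 (r = 0.69), SERPINB10 (0.69), PDCD1LG2 (0.68), RNPC3 (0.68) and ENSCAFG00000017563 (0.67), and EID1 (-0.78), JKAMP (-0.76) and CWC25 (-0.75). The 17 points share the separate set of 4 dogs. The osteosarcoma dogs varied little in the pair, with at most 0.415 CPM of MSANTD3-TMEFF1 and 0.0512 CPM of CAVIN4. Much of r therefore rests on the division of the healthy dogs, and r is given only as a measure of likeness.

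The 5 genes most like MSANTD3-TMEFF1 divided the healthy dogs as the pair did, with dogs 1, 2, 3 and 6 above dogs 4, 5 and 7. In the least alike genes of both lists, these 4 dogs lay below the other healthy dogs. PDCD1LG2, in the CAVIN4 list, was not divided in this way, since healthy dog 6 lay below dog 7. Unlike for the pair, the highest osteosarcoma dog lay above every healthy dog in each of the first 5 genes. SAAL1 was at 14.8, 16.2, 12.7 and 15.8 CPM in healthy dogs 1, 2, 3 and 6, at 9.58 to 10.8 CPM in the other healthy dogs and at 11.2 to 18.6 CPM in the osteosarcoma dogs. RNPC3, a protein of the minor spliceosome, was at 130, 125, 131 and 117 CPM in these 4 dogs, at 84.0 to 86.4 CPM in the other healthy dogs and at 71.0 to 135 CPM in the osteosarcoma dogs. With no minimum level, an alternative added after the data had been seen, the highest of 18070 genes outside the pair were SLC2A5 for MSANTD3-TMEFF1 (r = 0.84) and ENSCAFG00000014790 for CAVIN4 (0.81), and the likeness of the pair to each other is not given, since both were chosen for the same pattern.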

How the data were processed

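The authors sequenced 1 library per dog (Chromium 3′ v3.1 kit) and deposited UMI counts per gene and barcode for 17 dogs. Per the submitters' processing notes, Cell Ranger 7.0.0, the CanFam3.1 build and Seurat were used. The study aligned reads with and without introns, and which of these was deposited is not given in the sources used here. Deposited totals ran from 7740230 to 56510134 UMIs per dog. Healthy and osteosarcoma groups came from the labels' disease state.

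The cell filter of the study was applied (gene number between 200 and 4500, UMI number between 500 and 20000, mitochondrial share under 10%), 3938 putative doublets were removed, and platelet and erythrocyte clusters were left out of sums over all cells. With scanpy 1.11.5, 2000 variable genes were chosen, and 30 components of them were corrected across dogs with a rewritten form of the Harmony model. A graph of shared neighbours was then clustered with leidenalg 0.10.2 (Leiden resolution 1.0, 31 clusters). Both genes, ribosomal and mitochondrial genes took no part, and clusters were named from marker lists. The naming thresholds were chosen with the clusters in view, and such rebuilt names may differ from the study's.

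Counts were summed per dog, or per dog and lineage with at least 25 cells, and fitted with edgeR 4.0.16 (quasi-likelihood, TMM, at least 10 counts over the sums, Benjamini-Hochberg adjustment over all genes, R 4.3.3). DESeq2 1.42.0 was an alternative. The SE of an edgeR value was derived from its log2 fold change and quasi-likelihood F statistic, and it is unstable where both are near 0. Lineages reached by at least 12 dogs were compared, with dog as a block, at an adjusted p below 0.05, and a value is given where a gene had at least 10 UMIs in the lineage, a minimum set after the data had been seen. Other alternatives were size factors, gene and cell filters, resolutions of 0.5 and 1.5, age, sex, a replicate block and leaving out each dog. Clusters without the correction across dogs were a further alternative. The edgeR fits for groups, for lineages and for the group difference across lineages were tested on simulated data. So was the DESeq2 fit for groups, while the DESeq2 fit for lineages was not tested in this way. Shares of positive cells carry exact (Clopper-Pearson) 95% intervals and were also computed at 1500 UMIs per cell.

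The genes named were the pair, the lists for the locus, caveolae, TMEFF1 relatives with the Nodal and activin pathway, and the MSANTD family, and the 5 most and 3 least alike genes over dogs. The pair and the lists were chosen with earlier results of these data known. A correlation between the pair within each group was planned and not computed, because the healthy dogs fall into 2 separate sets of under 6 and the osteosarcoma dogs have at most 5 UMIs each.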

Additional observations from a re-analysis of the deposited data

Results flagged for a closer look

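In 52 groups of dogs tested by Dixon's rule, which looks for the highest or lowest value far from the rest of its group, 10 values stood apart. Chance gives about 1 in 20 for independent, normally distributed groups. These groups include scarce counts and genes picked with results known, so no excess over chance is read from the 10. Osteosarcoma dog 3 stood above the other osteosarcoma dogs for MSANTD3-TMEFF1, at 0.415 CPM over all cells (others 0 to 0.143) and 1.08 CPM in CD4 T cells (others 0 to 0.228). Both values rest on the same 3 UMIs in the dog with the fewest cells. TEX10 was also highest in this dog, at 66.8 CPM (others 24.4 to 42.2).

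Among the healthy dogs, dog 1 was lowest for ERP44 at 68.3 CPM (others 84.7 to 97.0) and highest for PLPPR1 at 10.3 CPM (others 0.534 to 4.72). Healthy dog 2 was highest for INVS at 70.1 CPM (others 41.8 to 47.6), for MSANTD1 at 0.210 CPM (others 0.0281 to 0.0971) and for SERPINB10 at 167 CPM (others 28.7 to 80.5). Healthy dog 7 was highest for ACVR2A at 187 CPM (others 23.7 to 44.4). SERPINB10 was also highest in osteosarcoma dog 5 at 173 CPM (others 43.6 to 104).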

How the results depend on the processing

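Under the alternatives, 726 values kept their side of the threshold or moved little, 28 moved by more than the spread between dogs or by over 1.5 times, and none reversed a called direction. A turn of direction between lineages was counted among the 726 where neither value was called, as for CAVIN4 in CD4 T cells with DESeq2. Between lineages, 4 values lost and 3 gained a call. The pair's values between groups carry no test and are not counted as calls. Between osteosarcoma and healthy dogs, CAVIN4 was -5.04 on the log2 scale with every deposited barcode and -5.42 with platelets and erythrocytes kept, against -6.02. With the replicate number of the titles as a block it was -5.20, and MSANTD3-TMEFF1 was -4.45, but the numbers do not pair the dogs (correlations of -0.27 to 0.33 over 7 pairs, 3 above 0.1). DESeq2 called 3 genes over all cells, 2 in eosinophils and basophils and 1 in monocytes, where edgeR called 0. edgeR's filterByExpr removed both genes and gave no value.

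In B cells against other lineages, MSANTD3-TMEFF1 missed the threshold with DESeq2 (0.64, adjusted p = 0.0655), and CAVIN4 passed it with at least 10 cells (0.93, adjusted p = 0.0129), with DESeq2's size factors in edgeR (0.69, adjusted p = 0.0404) and at resolution 0.5 (0.71, adjusted p = 0.0485). In eosinophils and basophils MSANTD3-TMEFF1 missed it under the same 3 settings, at 0.84 (adjusted p = 0.0972), 0.75 (adjusted p = 0.203) and 0.92 (adjusted p = 0.0543). The causes were not tested. Without thinning, the mean share of cells with a UMI was 1.68% in healthy and 0.0619% in osteosarcoma dogs for MSANTD3-TMEFF1, and 0.761% and 0.00578% for CAVIN4, because deeper cells hold more UMIs.

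With each dog left out, MSANTD3-TMEFF1 ran from -5.43 to -4.87 between groups and CAVIN4 from -6.57 to -5.80, with 0 genes called throughout. Leaving out each dog between lineages, and for the pooled ratios and bounds, was added after the data had been seen and carries no test. Between lineages, MSANTD3-TMEFF1 ran from 0.62 to 1.01 in B cells, 0.78 to 1.33 in eosinophils and basophils, -1.004 to -0.63 in monocytes, -0.04 to 0.21 in CD4 T cells, -0.56 to -0.093 in CD8 T and NK cells, -0.20 to 0.39 in dendritic cells and -0.12 to 0.47 in remaining T cells. CAVIN4 ran from 0.33 to 0.76 in B cells, 0.25 to 0.40 in CD4 T cells, -0.54 to -0.13 in CD8 T and NK cells, -0.12 to 0.34 in dendritic cells, -0.086 to 0.26 in monocytes and -0.28 to 0.38 in remaining T cells. The planned correlation of the pair within groups and its alternatives were not run, for the reason given under the methods. With 7 and 10 dogs and counts of 0 to 5 UMIs in most dogs, differences between low dogs are not detectable at this depth.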

Other observations

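Outside healthy dogs 1, 2, 3 and 6, 9 of all deposited barcodes held a CAVIN4 UMI. In 5 of them, from healthy dogs 4 and 7 and osteosarcoma dogs 2, 4 and 5, it was a single UMI in a platelet. The others were a platelet-bound cell of osteosarcoma dog 5, a monocyte of osteosarcoma dog 7, a CD4 T cell of osteosarcoma dog 2 with 2 CAVIN4 UMIs and 1 MSANTD3-TMEFF1 UMI, and a barcode of osteosarcoma dog 5 outside the cell filter. That last barcode held 5 CAVIN4 UMIs, more than any kept cell of the 17 dogs, and 1 MSANTD3-TMEFF1 UMI among 12439 UMIs, with 18.0% mitochondrial counts.

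Marker lists of other cells did not divide the dogs as the pair did. The summed endothelial markers were at 54.1 to 96.4 CPM in healthy and 28.5 to 96.1 CPM in osteosarcoma dogs, and the osteoblast or tumor list at 99.8 to 174 and 76.4 to 201 CPM, with IBSP at 0 in all dogs. Platelet markers summed to 17.3 to 119 and 14.1 to 123 CPM, and erythrocyte markers to 0.712 to 5.45 and 0.713 to 45.3 CPM. A part of such cells in the counts of the pair was not tested.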
